A study of Arabidopsis thaliana with 6 samples.

Results

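The genes described here are the photosynthesis genes that Arabidopsis thaliana keeps in its plastid genome. They were chosen by name: every probe set annotated to exactly 1 plastid gene whose symbol begins with psa, psb, pet, atp or ndh, or is rbcL. The rule found 43 genes with 1 probe set each, of 44 such genes in the TAIR10.1 annotation and of 22746 probe sets that are not controls. They comprise 5 genes of photosystem I, 15 of photosystem II, 6 of the cytochrome b6f complex, 6 of the ATP synthase, 10 of the NDH complex and 1 of Rubisco. The gene left out is ndhB, whose probe set names 2 genes. The rule itself uses names and no measured value.

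RNA came from seedlings at 10 days of age, raised under continuous light on agar medium with sucrose, and was hybridised to 6 single-colour Affymetrix arrays. There were 3 groups with 2 biological replicates each: wild type, seedlings overexpressing the rice OsTOP6A3 cDNA and seedlings overexpressing the rice OsTOP6B cDNA. The transgenes encode subunits A and B of rice topoisomerase 6, an enzyme that passes DNA strands through each other. The ecotype is given as Columbia for 5 of the 6 arrays. The promoter that drives the cDNAs is not given in the sources used here, no group carries an empty vector, and each overexpressor has 1 line name, so that subunit and line cannot be told apart. The same 2 wild-type arrays serve in both comparisons with wild type.

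The thylakoid membrane converts light into chemical energy through 2 photosystems linked by the cytochrome b6f complex, and the proton gradient they build drives the ATP synthase. The NDH complex returns electrons from ferredoxin to the plastoquinone pool, which is known as cyclic electron flow, and Rubisco fixes carbon dioxide in the stroma. The core subunits of these complexes are encoded in the plastid and most peripheral subunits in the nucleus. Plastid genes are read by a bacterial-type and a phage-type RNA polymerase, many as transcripts of several genes, and plastid mRNAs lack the stable poly(A) tail of nuclear mRNAs. How the RNA was primed for labelling is not given in the sources used here.

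Levels below are log2 of the deposited intensity plus 16, quantile normalized over the 6 arrays, and are given for replicates 1 and 2 of wild type, of the OsTOP6A3 overexpressors and of the OsTOP6B overexpressors, in this order. Each probe set has its own brightness, so that levels are compared between arrays and not between genes. Differences are group means on this scale, with the standard error (SE) of limma from 2 arrays a group, and a gene was called where its p adjusted by the Benjamini-Hochberg method over 17059 probe sets was under 0.05. Of the 43 genes 42 passed the filter on low values. In RNA from seedlings of mixed tissues, fewer cells of a type and less RNA per cell cannot be told apart.

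The deposited intensities had array medians of 66.2 to 103.5, and the 2 replicates of OsTOP6B lay at these extremes, with the higher median in replicate 1. That array also read 315 for the 25S ribosomal RNA control on the deposited scale, against 23.9 to 66 on the other 5 arrays. Its summed dap, lys, phe and thr controls were 50.5 times the array median, against 24.8 to 41.1 elsewhere. The 3′ to 5′ ratio of the ubiquitin control was 3.24 and 2.98 in wild type and 2.13 to 2.35 in the 4 overexpressor arrays, that of GAPDH was 1.61 and 1.49 against 1.01 to 1.43, and that of actin overlapped between the groups, at 9.97 to 12.8. No gene of the fixed green shoot, seed or flower marker lists had a probe set naming it alone, so that the tissue was not checked by those lists. The green-tissue gene RCA, for Rubisco activase, read 6961.6 to 10082.3 on the deposited scale. Of 8 root markers 3 were measured, and their summed deposited intensity was 5602.6 to 6513.8 in wild type, 8529.6 to 8810 with OsTOP6A3 and 5449.5 to 8676.7 with OsTOP6B. Nearly all of that sum came from PYK10, which was not called. The root hair gene EXPA7 rose 2.35-fold with OsTOP6A3 and 3.32-fold with OsTOP6B (limma adjusted p = 0.00357 and 0.00077), and EXPA18 rose 1.75-fold with OsTOP6B (limma adjusted p = 0.0141). The part of the labelling controls and of root tissue in the results below was not tested. Results that rest on OsTOP6B replicate 1 are given with and without it.

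Compared with wild type, psbA fell and ndhA rose in both overexpressors, each called. The share of all probe sets called in both is not given, and both comparisons use the same 2 wild-type arrays. In the OsTOP6A3 overexpressors 2 of the 42 tested genes were called, or 4.76% of them against 9.68% of all probe sets tested. These were ndhA, which rose, as 5.52% of all probe sets did, and psbA, which fell, as 4.17% did. With the OsTOP6B overexpressors 6 were called, or 14.3% against 14.9% of all probe sets. Here 5 rose, ndhA, ndhE, ndhH, ndhK and rbcL, against 7.91% of all probe sets, and psbA fell, against 6.98%. Calls on the deposited scale made up 14.3% against 11.5% of all probe sets with OsTOP6A3 and 19% against 8.56% with OsTOP6B, so that their place relative to the whole array depended on the scaling. An unadjusted p under 0.05 was reached by 12 genes with OsTOP6A3, or 28.6% against 25.9% of all probe sets, and by 10 with OsTOP6B, or 23.8% against 31.4%. On the deposited scale the median difference of all probe sets was 0.34 for OsTOP6A3. The calls in that comparison were then 5 higher, against 10.6% of all probe sets, and 1 lower, against 0.914%. The median difference of the 42 genes was −0.20 in the OsTOP6A3 overexpressors, with 29 of 42 below 0, and 0.16 in the OsTOP6B overexpressors, with 15 below 0, whereas the median of all probe sets was −0.02 in each comparison. The deposited scale reversed the first of these medians, to 0.19, which still lay under the median of all probe sets on that scale. Both OsTOP6A3 arrays lay above both wild-type arrays for 9 of the 42 genes, against 28.6% of all probe sets, and below them for 19, against 32.4%. For OsTOP6B these counts were 13, against 27.2%, and 2, against 30.1%. Both patterns met in psaB, petD, atpH, ndhD and ndhE, which were below wild type with OsTOP6A3 and above it with OsTOP6B in every array, as 0.85% of all probe sets were. Of these, ndhE alone kept this order on the deposited scale, against 0.0821% of all probe sets.

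**Figure D1:**
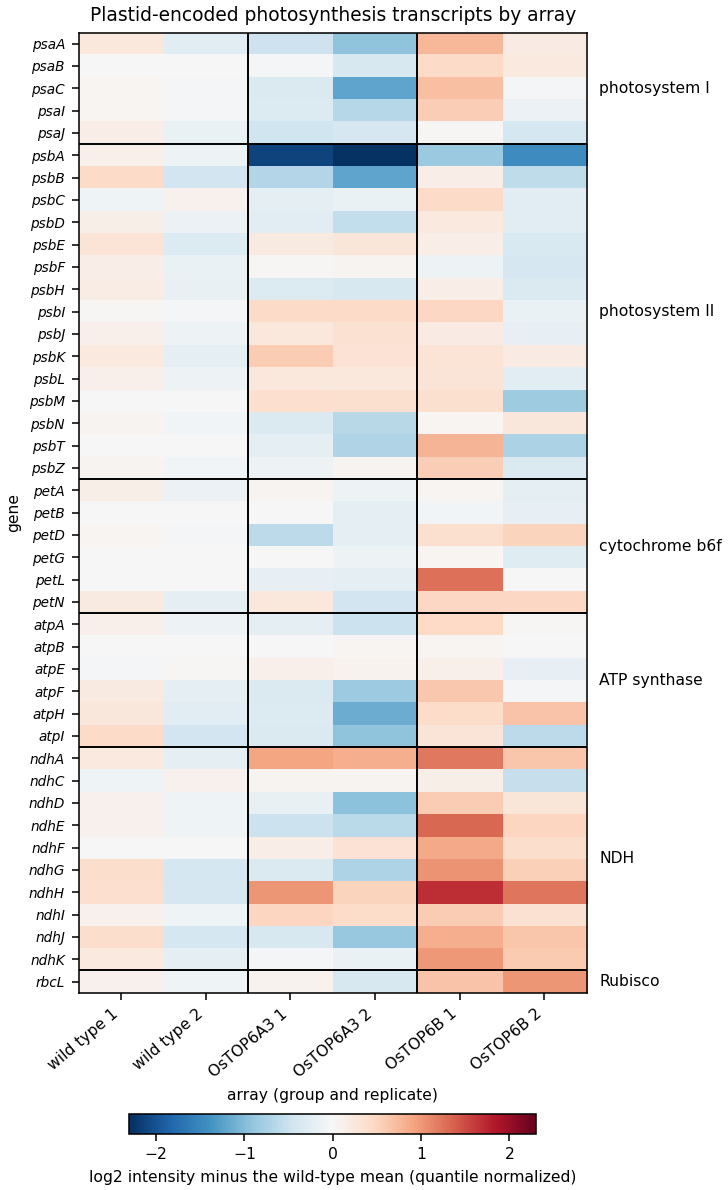
Normalized log2 level of each of the 43 plastid genes on each of the 6 arrays, drawn by colour as the deviation from the gene's own wild-type mean (blue lower, red higher), with genes in rows by complex and arrays in columns. psbA stands lowest in both overexpressors, and most NDH genes stand above wild type in both OsTOP6B arrays.

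Photosystem II splits water, and its reaction centre is a pair of related proteins, D1 and D2. D1 is damaged by light and replaced throughout the day, and its gene psbA has a promoter of its own and is known for abundant transcripts in light. The psbA level was 11.66 and 11.41 in wild type, 9.40 and 9.27 in the OsTOP6A3 overexpressors and 10.69 and 10.09 in the OsTOP6B overexpressors. On the deposited scale these arrays read 2768.4 and 2422.2, then 759.1 and 674.8, and finally 1933.3 and 935.3. The groups did not overlap on either scale, with OsTOP6A3 lowest and wild type highest. The psbA transcript fell 4.60-fold in the OsTOP6A3 overexpressors, a difference of −2.20 ± 0.21 (SE, n = 2 a group, limma adjusted p = 0.000971), and 2.21-fold in the OsTOP6B overexpressors, a difference of −1.15 ± 0.21 (limma adjusted p = 0.011). Under the 15 other settings tried for OsTOP6A3, the log2 difference ranged from −1.83 to −2.32 and each passed the test. In the OsTOP6B overexpressors the call was lost without wild-type replicate 1, with an adjusted p of 0.0655.

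None of the other 14 photosystem II genes was called against wild type in either line. The D2 gene psbD read 9.31 and 9.03 in wild type, 8.92 and 8.60 with OsTOP6A3 and 9.39 and 8.92 with OsTOP6B. The OsTOP6A3 arrays lay below wild type and the OsTOP6B arrays overlapped it, and the differences of −0.41 ± 0.20 and −0.01 ± 0.20 missed the test (limma adjusted p = 0.248 and 0.976). The proteins CP47 and CP43, which carry the chlorophyll of the inner antenna, are the products of psbB and psbC. The psbB level was 9.09 and 8.20 in wild type, 7.97 and 7.42 with OsTOP6A3 and 8.80 and 8.07 with OsTOP6B. Both OsTOP6A3 arrays lay below both wild-type arrays, but the wild-type replicates themselves were 0.89 apart, and the difference of −0.95 ± 0.35 missed the test (limma adjusted p = 0.136). For psbC the arrays read 10.80 and 10.99, then 10.67 and 10.73, and last 11.33 and 10.63, so that OsTOP6B spanned the range of wild type.

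The small and accessory genes of photosystem II pointed both ways. In the OsTOP6A3 overexpressors psbI, psbJ, psbK, psbL and psbM were above wild type in both arrays, with differences of 0.24 to 0.46, none called. Those of psbH, psbN and psbT, at −0.35, −0.49 and −0.45, went with arrays that lay below wild type, none called. The genes psbE and psbF, which encode the subunits of cytochrome b559, and psbZ overlapped wild type in that line. In the OsTOP6B overexpressors all 14 overlapped wild type, with differences from −0.25 for psbF to 0.25 for psbK. The widest replicate gap among the 43 genes within that group belonged to psbT, at 8.49 and 6.99, against 7.72 and 7.71 in wild type and 7.51 and 7.02 with OsTOP6A3. Across the 15 genes the mean level differed from wild type by −0.20 in the OsTOP6A3 overexpressors and by −0.08 in the OsTOP6B overexpressors. The first of these turned to 0.20 on the deposited scale.

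Photosystem I passes electrons from plastocyanin to ferredoxin. Its reaction centre is the pair of large proteins encoded by psaA and psaB, and psaC encodes the iron-sulfur protein at its stromal side. In the OsTOP6A3 overexpressors all 5 genes lay below wild type in both arrays, the others being the small subunit genes psaI and psaJ, whereas 32.4% of all probe sets did so. Their differences ran from −0.77 to −0.20 with a median of −0.49, and none was called. On the deposited scale 4 of the 5 remained below 0 and all 5 remained under the median of all probe sets. The mean level of the 5 genes was 11.17 ± 0.13 in wild type, 10.66 ± 0.28 in the OsTOP6A3 overexpressors and 11.41 ± 0.37 in the OsTOP6B overexpressors (SD of the array means, n = 2).

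The psaA level was 11.24 and 10.76 in wild type, 10.53 and 10.07 with OsTOP6A3 and 11.76 and 11.18 with OsTOP6B. The OsTOP6A3 arrays were lowest, and OsTOP6B replicate 2 fell inside the range of wild type, so that the differences of −0.70 ± 0.25 and 0.47 ± 0.25 missed the test (limma adjusted p = 0.13 and 0.248). The psaB level was 12.49 and 12.51, then 12.46 and 12.13, and last 12.95 and 12.73. Its 3 groups did not overlap and stood in the order OsTOP6A3, wild type, OsTOP6B, although neither difference from wild type, −0.20 ± 0.15 and 0.34 ± 0.15, was called and the groups overlapped on the deposited scale. For psaC the arrays read 8.95 and 8.85 in wild type, 8.57 and 7.70 with OsTOP6A3 and 9.59 and 8.88 with OsTOP6B. The OsTOP6A3 arrays were below wild type, OsTOP6B replicate 2 was between the wild-type arrays, and the differences of −0.77 ± 0.31 and 0.33 ± 0.31 missed the test (limma adjusted p = 0.172 and 0.513).

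The cytochrome b6f complex moves electrons from plastoquinol to plastocyanin. No gene of this complex was called against wild type in either line. The gene for cytochrome f, petA, read 12.57 and 12.32 in wild type, 12.51 and 12.32 with OsTOP6A3 and 12.48 and 12.22 with OsTOP6B, and the 3 groups overlapped. The petB level, from the gene for cytochrome b6, was 12.81 and 12.79, then 12.80 and 12.58, and last 12.74 and 12.62, and the OsTOP6B arrays lay just below wild type. The gene for subunit IV, petD, is transcribed with petB but was the member of the complex that varied most between the lines. Its level was 5.44 and 5.35 in wild type, 4.79 and 5.19 with OsTOP6A3 and 5.76 and 5.92 with OsTOP6B, which are dim readings of 12.9 to 48.1 on the deposited scale. After normalization the 3 groups did not overlap, with wild type in the middle, whereas on the deposited scale OsTOP6A3 replicate 2, at 22, lay between the wild-type arrays. The differences of −0.41 ± 0.16 and 0.44 ± 0.16 missed the test (limma adjusted p = 0.159 and 0.108). The small subunit genes petG, petL and petN differed from wild type by −0.05, −0.20 and −0.10 with OsTOP6A3 and by −0.12, 0.63 and 0.47 with OsTOP6B, none called. In the last group petL read 10.25 in replicate 1 and 8.97 in replicate 2, where the lower wild-type array also read 8.97.

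The chloroplast ATP synthase has a catalytic head, to which atpA, atpB and atpE contribute the alpha, beta and epsilon subunits, and a membrane part with atpF, atpH and atpI, where atpH encodes the subunit of the rotating ring. No gene was called in either comparison. The atpA level was 12.41 and 12.18 in wild type, 12.08 and 11.79 with OsTOP6A3 and 12.75 and 12.33 with OsTOP6B, and the difference of −0.36 ± 0.19 for OsTOP6A3 missed the test (limma adjusted p = 0.27). The atpB level lay between 13.29 and 13.32 on all 6 arrays. This probe set ranked 3 or 4 in brightness on every array, where quantile normalization makes arrays nearly equal by construction, and on the deposited scale it read 9051.5 and 9729.9 in wild type, 12060.2 and 12000.4 with OsTOP6A3 and 10530.4 and 7497.9 with OsTOP6B. The atpE difference was 0.10 with OsTOP6A3 and −0.03 with OsTOP6B.

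For atpH the arrays read 10.68 and 10.17 in wild type, 10.11 and 9.28 with OsTOP6A3 and 10.85 and 11.08 with OsTOP6B. The 3 groups did not overlap, with wild type between the lines, whereas on the deposited scale OsTOP6A3 overlapped wild type. The differences of −0.73 ± 0.28 and 0.54 ± 0.28 missed the test (limma adjusted p = 0.154 and 0.236). The remaining membrane genes atpF and atpI differed by −0.58 and −0.62 with OsTOP6A3 and by 0.29 and −0.15 with OsTOP6B, none called. The mean level of the 6 genes differed from wild type by −0.36 in the OsTOP6A3 overexpressors, or by −0.0025 on the deposited scale, and by 0.15 in the OsTOP6B overexpressors.

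The NDH complex has a membrane arm, to which ndhA, ndhC, ndhD, ndhE, ndhF and ndhG belong, and a stromal arm with ndhH, ndhI, ndhJ and ndhK. It held 4 of the 6 calls in the OsTOP6B overexpressors, all rises. With a pseudocount of 1 or with no filter, ndhH was the only NDH gene still called in that line. In that line 8 of the 9 tested genes lay above wild type in both arrays, all but ndhC, whereas 27.2% of all probe sets did so. The median difference of the 9 genes was 0.79, and at least 8 of 9 were above 0 under each scaling tried and with each array left out in turn. That median fell to 0.40 without wild-type replicate 2 and to 0.55 without OsTOP6B replicate 1. The mean level of the 10 genes was 8.63 ± 0.25 in wild type, 8.64 ± 0.17 in the OsTOP6A3 overexpressors and 9.33 ± 0.33 in the OsTOP6B overexpressors (SD of the array means, n = 2). Leaving out OsTOP6B replicate 1 lowered the difference of that line's mean from 0.70 to 0.46 and ended all 4 calls, with adjusted p of 0.0784 to 0.114.

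The ndhA transcript, for a membrane subunit next to the stromal arm, rose in both lines. Its level was 10.84 and 10.41 in wild type, 11.53 and 11.46 with OsTOP6A3 and 11.84 and 11.27 with OsTOP6B. Every overexpressor array was above both wild-type arrays, and the lines overlapped each other. The rise was 1.82-fold with OsTOP6A3, a difference of 0.86 ± 0.22 (limma adjusted p = 0.0475), and 1.90-fold with OsTOP6B, a difference of 0.93 ± 0.22 (limma adjusted p = 0.0297). The call of OsTOP6A3 was lost without each of the 4 arrays in the comparison, with adjusted p of 0.0629 to 0.207, and that of OsTOP6B without wild-type replicate 2 (0.135) or OsTOP6B replicate 1 (0.0927).

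The stromal-arm gene ndhH had the largest rise of the 42 tested genes with OsTOP6B. Its level was 7.43 and 6.66 in wild type, 8.05 and 7.56 with OsTOP6A3 and 8.74 and 8.27 with OsTOP6B, and the 3 groups did not overlap. It rose 2.75-fold with OsTOP6B, a difference of 1.46 ± 0.29 (limma adjusted p = 0.0157), while the difference of 0.76 ± 0.29 with OsTOP6A3 missed the test (limma adjusted p = 0.145). Also in the stromal arm, ndhK read 6.84 and 6.40 in wild type, 6.60 and 6.47 with OsTOP6A3 and 7.62 and 7.22 with OsTOP6B. The OsTOP6B arrays stood above the rest and OsTOP6A3 lay within wild type. The rise with OsTOP6B was 1.74-fold, a difference of 0.80 ± 0.19 (limma adjusted p = 0.0337), against −0.08 ± 0.19 with OsTOP6A3.

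The membrane-arm gene ndhE read 7.85 and 7.67 in wild type, 7.27 and 7.14 with OsTOP6A3 and 9.08 and 8.25 with OsTOP6B. Its 3 groups did not overlap, with OsTOP6A3 below and OsTOP6B above wild type. It rose 1.87-fold with OsTOP6B, a difference of 0.90 ± 0.25 at the edge of the threshold (limma adjusted p = 0.0497), and differed by −0.56 ± 0.25 with OsTOP6A3 (limma adjusted p = 0.204). The other NDH genes were not called. With OsTOP6B, ndhD, ndhG, ndhI and ndhJ differed by 0.44, 0.79, 0.46 and 0.73 and ndhC by −0.20. With OsTOP6A3 the same genes differed by −0.55, −0.53, 0.46, −0.62 and 0.06. The probe set of ndhF was under the filter on low values and was not tested. It read 4.37 and 4.39 in wild type, 4.53 and 4.71 with OsTOP6A3 and 5.25 and 4.78 with OsTOP6B, where an intensity of 0 before normalization would give 4.

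**Figure D2:**
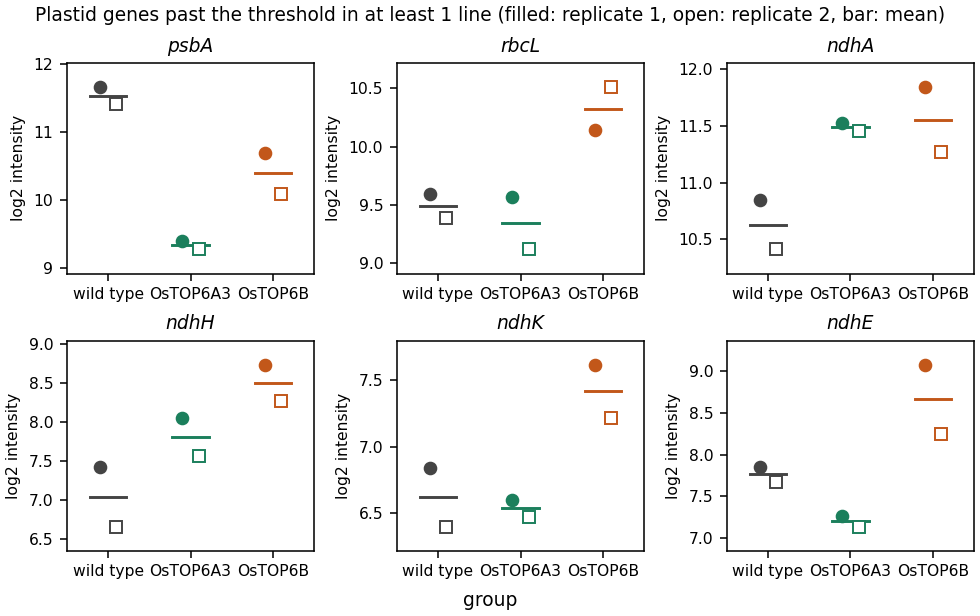
Normalized log2 level on every array for the genes called against wild type in either line (adjusted p under 0.05), by group, with replicate 1 filled, replicate 2 open and the group mean as a bar. psbA is below wild type in all 4 overexpressor arrays and ndhA above it, and the OsTOP6B arrays are the highest for ndhE, ndhH, ndhK and rbcL.

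The large subunit of Rubisco, the catalytic part of the enzyme, is the product of rbcL. Its level was 9.59 and 9.39 in wild type, 9.57 and 9.12 with OsTOP6A3 and 10.14 and 10.51 with OsTOP6B. On the deposited scale the arrays read 642.2 and 573.3, then 860.5 and 606.1, and last 1327.9 and 1237.0. The OsTOP6B arrays lay above the other 4 on both scales, and OsTOP6A3 overlapped wild type after normalization. The rbcL transcript rose 1.78-fold in the OsTOP6B overexpressors, a difference of 0.83 ± 0.19 (limma adjusted p = 0.0291), and differed by −0.15 ± 0.19 in the OsTOP6A3 overexpressors (limma adjusted p = 0.678). Unlike the NDH rises, that of rbcL was called without OsTOP6B replicate 1, where its difference was 1.02. Leaving out either wild-type array or OsTOP6B replicate 2 ended the call, with adjusted p of 0.0745, 0.127 and 0.115.

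**Figure D3:**
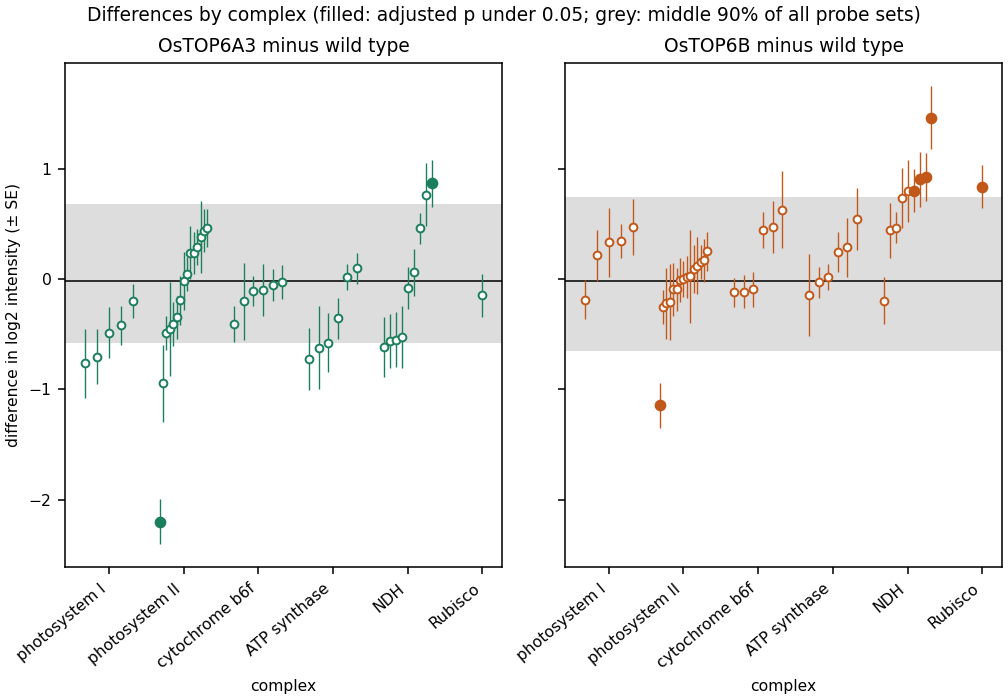
Log2 difference from wild type of each tested plastid gene, by complex, for the OsTOP6A3 and the OsTOP6B overexpressors, with SE bars, filled points for adjusted p under 0.05, a line at the median of all probe sets and a grey band over their middle 90%. NDH genes have a median of 0.79 with OsTOP6B against −0.08 with OsTOP6A3, and photosystem I genes −0.49 with OsTOP6A3 against 0.33 with OsTOP6B.

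The difference between the lines was tested directly. No plastid gene differed between the OsTOP6A3 and OsTOP6B overexpressors after adjustment, and 0% of all probe sets did by limma. Without adjustment 19 of the 42 genes had a p under 0.05, or 45.2%, against 7.24% of all probe sets, and all 19 were lower with OsTOP6A3. Over all probe sets 3.41% were lower at this threshold and 3.83% higher. The deposited scale gave 13 genes lower, against 0.545% of all probe sets, and 4 higher, against 2.94%. The 95% interval of the log2 difference lay below 0 for these 19 genes and held 0 for the other 23. Both OsTOP6A3 arrays lay below both OsTOP6B arrays for 20 genes, against 19.2% of all probe sets, and above them for 4, against 19.1%. The median difference was −0.48, while that of all probe sets was 0.00.

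The difference between the lines was widest for ndhE, at −1.46 ± 0.25, or 2.76-fold lower with OsTOP6A3 (limma adjusted p = 0.642), with an interval from −2.04 to −0.89. It passed the test on the deposited scale alone, with an adjusted p of 0.0436. Next came ndhJ at −1.35, ndhG at −1.32, atpH at −1.27, psaA at −1.17, psaC at −1.10 and psbA at −1.06, none called. For psbA this is a difference between 2 falls, with an interval from −1.53 to −0.58. By complex the median difference between the lines was −0.88 for NDH, −0.70 for photosystem I, −0.54 for the ATP synthase, −0.28 for cytochrome b6f and −0.14 for photosystem II. Without OsTOP6B replicate 1 the median over the 42 genes shrank from −0.48 to −0.09, and 18 genes had an unadjusted p under 0.05, of which 12 were lower with OsTOP6A3, against 7.11% of all probe sets, and 6 higher, against 9.11%. The medians by complex then were −0.68 for NDH, −0.43 for photosystem I, −0.21 for the ATP synthase and −0.06 for cytochrome b6f, and that of photosystem II turned to 0.27, with 10 of 15 genes above 0.

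The array left out in that comparison carried more plastid signal than its replicate. Replicate 1 of OsTOP6B was above replicate 2 for 37 of the 42 tested genes, with a median gap of 0.47, whereas the median gap of all probe sets was 0.00. The gaps ran from −0.36 for rbcL to 1.51 for psbT, and petL and psbM had gaps of 1.28 and 1.18. In the wild-type and OsTOP6A3 groups replicate 1 was also the higher for 36 and 32 of the 42 genes, with median gaps of 0.23 and 0.16. Between the OsTOP6B arrays the 25S ribosomal RNA control ran the same way as the plastid genes, at 315 and 46.7. It ran the opposite way in wild type, at 23.9 and 53.7, and in the OsTOP6A3 overexpressors, at 53.9 and 66. Its part in the gaps was not tested.

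**Figure D4:**
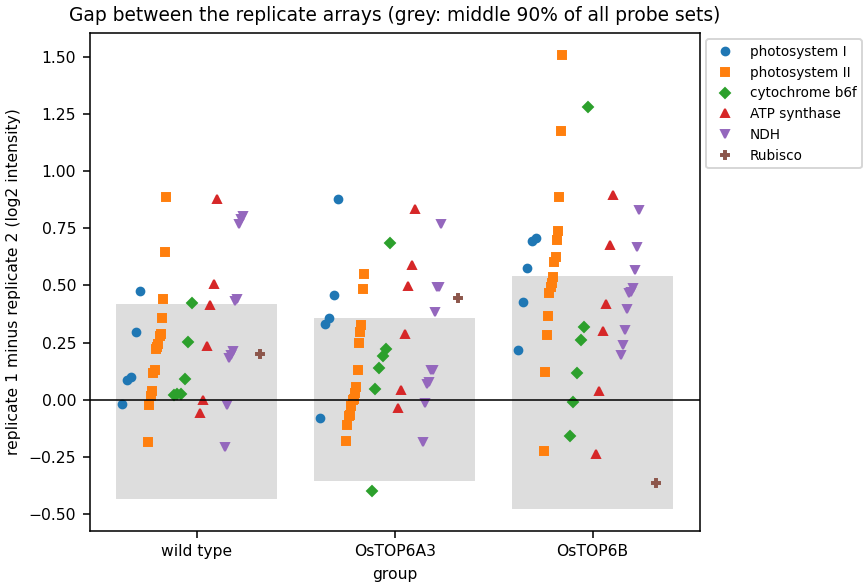
Gap between the replicate arrays (replicate 1 minus replicate 2, log2) of each of the 43 plastid genes in each of the 3 groups, by complex, over a grey band that spans the middle 90% of all probe sets. The 42 tested plastid genes have a median gap of 0.23 in wild type, 0.16 in the OsTOP6A3 and 0.47 in the OsTOP6B overexpressors.

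Without OsTOP6B replicate 1, the mean level of the OsTOP6B group differed from wild type by −0.03 for photosystem I, −0.37 for photosystem II, 0.05 for cytochrome b6f, −0.02 for the ATP synthase, 0.46 for NDH and 1.02 for Rubisco. With both arrays these differences were 0.23, −0.08, 0.20, 0.15, 0.70 and 0.83. Those of photosystem I and the ATP synthase thus lost their sign, and those of NDH and Rubisco kept it. Without that array psbA differed by −1.45, rbcL by 1.02 and psbM, which encodes a small subunit of photosystem II, by −0.81. With 1 array left in that group, a test assumes that it varies as the other groups do. The OsTOP6B arrays of psbM themselves were 1.18 apart.

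Many of these genes stand next to each other on the plastid genome, and 38 of the 43 fall into 10 runs of neighbours with no other gene between them in the annotation. The longest runs hold 7 genes. In the run ndhD, psaC, ndhE, ndhG, ndhI, ndhA and ndhH, all 7 differences from wild type were above 0 with OsTOP6B, from 0.33 to 1.46. With OsTOP6A3 the same run was split by position: ndhD, psaC, ndhE and ndhG had differences of −0.55, −0.77, −0.56 and −0.53, and the adjacent ndhI, ndhA and ndhH had 0.46, 0.86 and 0.76. Of these 14 differences, ndhA in both lines and ndhE and ndhH with OsTOP6B were called. The differences between the lines were −0.99 to −1.46 for the first 4 genes, −0.01 and −0.06 for ndhI and ndhA and −0.70 for ndhH.

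In the run of psbB, psbT, psbN, psbH, petB and petD, all 6 differences were below 0 with OsTOP6A3, from −0.95 to −0.11, and they ran from −0.21 to 0.44 with OsTOP6B. The run atpA, atpF, atpH and atpI had differences of −0.36 to −0.73 with OsTOP6A3 and of −0.15 to 0.54 with OsTOP6B. None of the genes of these 2 runs was called. In the run atpE, atpB and rbcL, rbcL rose with OsTOP6B and its neighbours differed by −0.03 and 0.02. Those 2 probe sets ranked 7 to 26 and 3 or 4 in brightness, where quantile normalization holds arrays close together. Their normalized values thus cannot show whether they changed with rbcL. On the deposited scale atpE averaged 7631.9 in wild type and 7304.2 with OsTOP6B, and atpB 9390.7 and 9014.15. On that scale rbcL averaged 607.75 and 1282.45. The run petA, psbJ, psbL, psbF, psbE, petL and petG spanned −0.20 to 0.29 with OsTOP6A3 and −0.25 to 0.63 with OsTOP6B, and in ndhJ, ndhK and ndhC the values were −0.62, −0.08 and 0.06 with OsTOP6A3 and 0.73, 0.80 and −0.20 with OsTOP6B. Adjacent genes thus shared a direction in some runs and differed within others. The runs were built from position alone, without strand, so that genes of 1 run need not share a transcript.

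**Figure D5:**
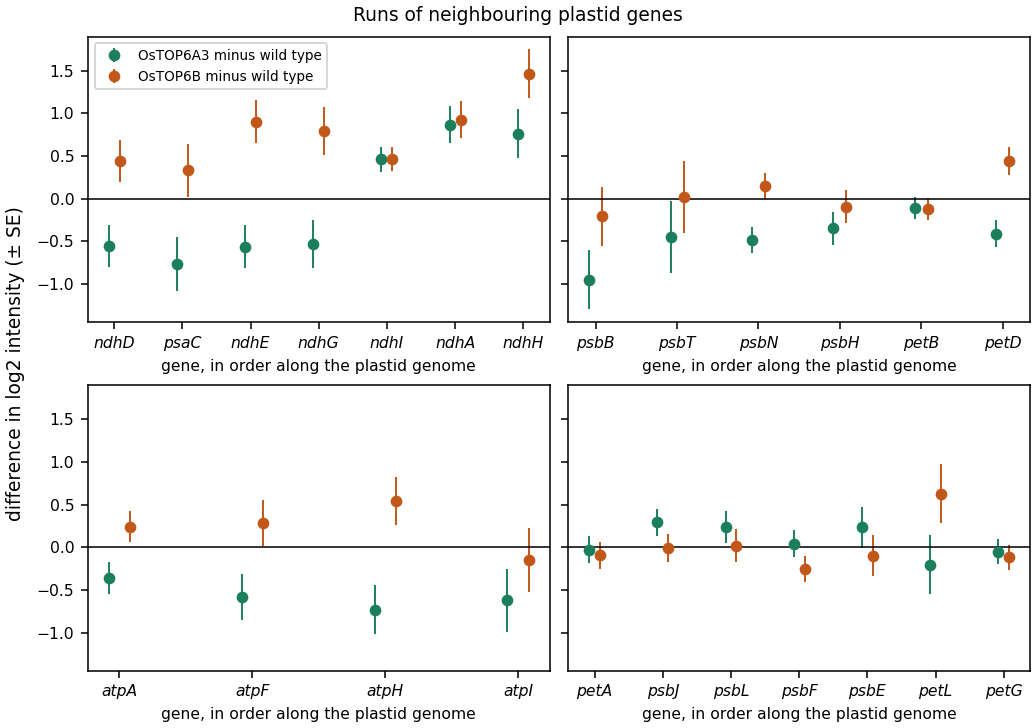
Log2 difference from wild type of the plastid genes in the 4 longest runs of neighbours, in their order on the plastid genome, for both lines with SE bars. In the run from ndhD to ndhH the OsTOP6A3 values step from −0.53 at ndhG to 0.46 at ndhI, while all OsTOP6B values are above 0.

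The nuclear genes whose products join these complexes were thinly covered by probe sets with 1 gene: 2 of 19 for photosystem I, 7 of 34 for photosystem II, 1 of 11 for cytochrome b6f and its partners, 2 of 5 for the ATP synthase, 8 of 28 for NDH and 3 of 13 for Rubisco and its helpers. Of the 7 photosystem II genes 2 were called in each line. LHCB4.3, which encodes a minor antenna protein of photosystem II, fell in both lines, by 1.48 and by 1.58 on the log2 scale (SE 0.17, limma adjusted p = 0.00208 and 0.00148), and LHCB4.2, for a related protein, rose by 0.72 and 0.79 (limma adjusted p = 0.0344 and 0.0193). The other 5 photosystem II genes were not called.

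PSAN, which encodes the photosystem I subunit on the plastocyanin side, fell by 0.71 and by 0.83 on the log2 scale (limma adjusted p = 0.0327 and 0.0141). PGRL1B, which acts in cyclic electron flow beside the NDH route, fell by 0.93 and by 0.81 (limma adjusted p = 0.0125 and 0.0162). None of the 8 nuclear NDH genes was called with OsTOP6A3. With OsTOP6B, where 4 plastid NDH genes rose, 1 of the 8 was called, NdhN, a stromal-arm subunit, which fell by 0.68 (limma adjusted p = 0.0262). The median difference of these 8 genes was −0.46 with OsTOP6B, while the median of all probe sets was −0.02. ATPC2, for a gamma subunit of the ATP synthase, fell by 0.56 with OsTOP6B (limma adjusted p = 0.031), and none of the 3 genes measured for Rubisco was called. On the deposited scale the falls of PSAN, PGRL1B, NdhN and ATPC2 missed the test, while the calls of LHCB4.3 and LHCB4.2 held. LHCB4.3 was called in both lines with each array left out in turn, and each of the other 5 called nuclear genes lost a call without at least 1 array.

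Few genes that transcribe the plastid genome or process its RNA were measured, and none of these was called, against 9.68% and 14.9% of all probe sets. Of 33 genes of the transcription machinery 4 were measured, the plastid genes rpoA, rpoB, rpoC1 and rpoC2 for the bacterial-type polymerase. They had a median difference of −0.31 with OsTOP6A3 and 0.07 with OsTOP6B. No nuclear gene of that machinery was measured. Of 27 genes of RNA processing 6 were tested, with medians of −0.10 and −0.11. The 26 other plastid genes with 1 probe set each, most of them for ribosomal proteins and the polymerase, had a median difference of −0.28 with OsTOP6A3 and 0.07 with OsTOP6B. Between the lines 10 of these 26 had an unadjusted p under 0.05, all lower with OsTOP6A3, or 38.5% against 3.41% of all probe sets. Without OsTOP6B replicate 1 there were 7 lower, against 7.11%, and 4 higher, against 9.11%.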

How the data were processed

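Per the labels, biotin-labelled total RNA of 2 biological replicates of each of 3 groups was hybridised to single-colour Affymetrix arrays. The authors deposited linear intensity values, 1 for each probe set on each array. How they were summarised and scaled was not given in the sources used here. Of 22810 probe sets 64 controls were set aside. Because the quartiles of the deposited intensities differed between arrays by up to 0.54 on the log2 scale, a pseudocount of 16 was added and log2 values were quantile normalized. Probe sets with a mean under the 25th percentile were dropped. All 6 arrays were fitted together with limma 3.58.1 in R 4.3.3 (3 residual and 4.61 prior degrees of freedom), with Benjamini-Hochberg adjustment over the 17059 probe sets left. The procedure was tested on simulated data. The number of arrays limits the precision.

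Gene names came from the platform's probe table, and names and neighbours from the TAIR10.1 annotation; strand was not used. The genes, lists and tests were chosen with earlier results of these data known. Values on every array are given for core subunits, for the gene with the smallest p of each complex in each comparison, for called genes, and for the widest and narrowest replicate gaps within OsTOP6B. The remaining genes are given by differences and ranges, and nuclear genes are named where called. Alternatives were a replicate block, 3 other scalings, other pseudocounts and filters, a moderation of variances with trend and robust options, and leaving out each array. Leaving out arrays for the means by complex was added after the data were seen.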

Additional observations from a re-analysis of the deposited data

Results flagged for a closer look

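For 5 of the 42 tested plastid genes, both OsTOP6A3 arrays lay below and both OsTOP6B arrays above both wild-type arrays, or 11.9% of them against 0.85% of all probe sets. No plastid gene showed the reverse order, against 0.698% of all probe sets. These genes were psaB, petD, atpH, ndhD and ndhE. The deposited scale left this order to 1 gene, ndhE, against 0.0821% of all probe sets, and with median scaling 6 did, against 0.662%, with psaA and petL in and ndhD out. Their difference between the lines, OsTOP6A3 minus OsTOP6B, was −0.54 for psaB, −0.85 for petD, −1.27 for atpH, −0.99 for ndhD and −1.46 for ndhE on the log2 scale. None passed limma's test between the lines after adjustment over all probe sets, and the unadjusted p ran from 0.000445 for ndhE to 0.00887 for psaB.

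In the control probe sets, which no comparison used, the 25S ribosomal RNA signal of OsTOP6B replicate 1 was 315 on the deposited scale, against 23.9 and 53.7 in wild type and 46.7 in its own replicate. This array also had the higher level of its group for 37 of the 42 tested plastid genes. In the other groups replicate 1 was the higher for 36 in wild type and 32 with OsTOP6A3. The part of the 25S signal in the plastid values was not tested.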

How the results depend on the processing

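Called plastid genes against wild type with OsTOP6A3 numbered 2. They were 6 on the deposited scale, or 14.3% of those tested against 11.5% of all probe sets. They were 1 with quantiles taken from probe sets outside the organelles (2.38% against 9.71%). They were 1 with a pseudocount of 1 (2.38% against 6.45%) and 4 with one of 64 (9.52% against 13.5%). They were 1 with no filter, 4 with trend and robust moderation and 1 to 4 with an array left out. With OsTOP6B they numbered 6, against 2 with a pseudocount of 1, 9 with one of 64, 2 with no filter, 7 with a filter at the 50th percentile, 8 on the deposited scale, 8 with trend and robust moderation and 1 to 6 with an array left out, the 1 being psbA without wild-type replicate 2. With no filter the OsTOP6A3 share was 2.33% against 4.41% of all probe sets, and with trend and robust moderation 9.52% against 13.5%. The OsTOP6B share was 19% against 8.56% on the deposited scale. With pseudocounts of 1 and 64 it was 4.76% against 10.6% and 21.4% against 19.9%. It was 4.65% against 7.07% with no filter, 18.4% against 23% with the 50th-percentile filter and 19% against 19.9% with trend and robust moderation. Between the lines 0 became 1, ndhE, on the deposited scale. That scale gave mean differences of OsTOP6A3 from wild type of −0.14 for photosystem I, 0.20 for photosystem II, 0.18 for cytochrome b6f, −0.0025 for the ATP synthase, 0.35 for NDH and 0.25 for Rubisco, of 1.06 for Rubisco with OsTOP6B, and a median gap of 0.95 between the OsTOP6B arrays. The median difference of all probe sets on that scale was 0.34 with OsTOP6A3 and 0.18 with OsTOP6B, against −0.02 in each after quantile normalization. Over all probe sets, the 1652 calls with OsTOP6A3 became 1100 with a pseudocount of 1, 2308 with one of 64, 1002 with no filter and as few as 548 with an array left out. The 2540 with OsTOP6B became 3400 with a pseudocount of 64, 1460 on the deposited scale, 1608 with no filter and as few as 1067 with an array left out.

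Over the whole array, deviations of same-numbered arrays correlated at 0.0021, −0.050 and 0.016. The tested plastid genes, however, were mostly higher in replicate 1, 36 of 42 in wild type, 32 with OsTOP6A3 and 37 with OsTOP6B. Whether arrays of the same replicate number shared a batch is not given in the labels. With a replicate block the calls were 7 with OsTOP6A3, or 16.7% against 8.51% of all probe sets, with atpF, atpI, ndhH, psaA and psbB gained. They were 8 with OsTOP6B, or 19% against 12.7%, with ndhG and ndhJ gained, and 0 between the lines. With 2 arrays a group, calls near the threshold rest on single arrays, the cause of each loss was not tested, and a gene that missed the test is not shown to be unchanged. Probe sets near the floor, such as ndhF and petD, understate fold changes.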

Other observations

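The probe set for ndhB, an NDH membrane subunit encoded in the inverted repeat, names 2 genes and entered no count above. Its deposited intensities were 45.6 and 34.9 in wild type, 27.5 and 50.6 in the OsTOP6A3 overexpressors and 37.4 and 34.7 in the OsTOP6B overexpressors, and the groups overlapped. The normalized log2 differences from wild type were −0.34 and −0.27 (limma adjusted p = 0.404 and 0.464). Unlike 8 of the 9 tested NDH genes, it was thus not above wild type with OsTOP6B.

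Among the 26 other plastid genes, 2 fell with OsTOP6A3 after limma's adjustment, or 7.69% against 4.17% of all probe sets, and none rose, against 5.52%. With OsTOP6B 3 rose, or 11.5% against 7.91%, and none fell, against 6.98%. Without OsTOP6B replicate 1 the median difference of the 26 genes from wild type was −0.12, against 0.07 with both arrays. Replicate 1 of OsTOP6B exceeded replicate 2 for 24 of these 26, with a median gap of 0.34, against 49.2% of all probe sets. Replicate 1 was also the higher for 21 in wild type and 21 with OsTOP6A3, with median gaps of 0.12 and 0.18. The shares of all probe sets were 50.9% and 49.5% there. The higher plastid signal of replicate 1 thus extended beyond the photosynthesis genes in each group, with the widest median gap in OsTOP6B.

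Summed over the 43 photosynthesis genes, the deposited intensity was 1.65% and 1.52% of the total of all probe sets in wild type, 1.58% and 1.48% with OsTOP6A3 and 1.72% and 1.38% with OsTOP6B. The shares of the 3 groups overlapped, with both extremes in the OsTOP6B group.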
